A study of Bos taurus with 9 samples.

Results

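The 46 genes described here carry out mitosis and chromosome segregation: they build the spindle and the kinetochore, run the spindle checkpoint, release the sister chromatids and divide the cell. They were taken by gene symbol from a fixed list, and all 46 symbols were found among the 21512 genes of a transcriptome table of single bovine blastocysts at day 8 (D8) after in vitro fertilization. The table holds 9 embryos with 1 library each, 5 wild type (WT) and 4 in which TEAD4, a transcription factor of the Hippo pathway, had been knocked out (KO). For both groups oocytes were matured in vitro, injected, fertilized with semen of a single bull and cultured in synthetic oviduct fluid, and each blastocyst was snap frozen whole, so that inner cell mass and trophectoderm were read together. WT embryos came from oocytes that received Cas9 mRNA alone and carried no mutated allele. KO embryos came from oocytes that received Cas9 mRNA together with a guide RNA against TEAD4 and carried only frame-disrupting insertions or deletions, which can differ from one KO embryo to the next. The embryos are named as in the deposited table, WT_1 to WT_5 and TE_1 to TE_4, the latter being the KO embryos.

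In a dividing cell Aurora and Polo-like kinases start mitosis and mature the centrosomes, kinetochores tie the chromosomes to spindle microtubules, and the spindle checkpoint holds back the anaphase-promoting complex until every chromosome is attached. Once the checkpoint is satisfied, CDC20 activates that complex, separase cuts cohesin and the central spindle guides the contractile ring that splits the cell. Most of these transcripts are made late in the cell cycle and are removed as cells leave mitosis, so their level in a tissue is commonly read as a sign of how many cells are dividing, and a blastocyst is a small population of cleaving and proliferating cells.

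Levels are given in TPM, transcripts per 1000000, which are divided by transcript length and sum to 1000000 in each library, so that levels of different genes can be set side by side, and n is 5 WT and 4 KO embryos for every mean and SD. TEAD4 transcript stood at 18.0, 52.5, 54.3, 36.5 and 43.4 TPM in the WT embryos and at 42.8, 41.8, 12.5 and 22.2 TPM in the KO embryos, each in the order of their numbers, overlapping between the groups (log2 difference −0.51, SE 0.42, limma, adjusted p = 0.947), and a transcript level does not show whether the reading frame is intact. Trophectoderm markers (CDX2, GATA2, GATA3, KRT8 and KRT18) and inner cell mass markers (POU5F1, SOX2 and NANOG), 5 of 5 and 3 of 3 above the filter on low values, had summed levels of 3895 to 17760 and 777 to 2045 TPM in WT and 6427 to 12164 and 1358 to 2166 TPM in KO. Most of the trophectoderm sum was KRT8 and KRT18, while CDX2, GATA2 and GATA3 lay between 11.4 and 97.6 TPM over the 9 embryos. Most of the inner cell mass sum was POU5F1 (773 to 2142 TPM over the 9 embryos), while SOX2 ran from 2.26 TPM in TE_3 to 90.4 TPM in WT_4 and NANOG from 0.127 TPM in WT_1 to 262 TPM in WT_4, with 2.70 TPM in TE_2 and 3.55 TPM in TE_3. The 3 hypoblast markers summed to 81.5 to 133 TPM in WT and 35.8 to 148 TPM in KO, most of it GATA6. GATA4 was low and did not overlap between the groups (1.09 to 1.75 TPM in WT, 0.367 to 0.957 TPM in KO, log2 difference −0.59, limma, adjusted p = 0.684), and SOX17 ran from 2.52 to 38.1 TPM in WT and from 1.91 to 11.5 TPM in KO (log2 difference −1.12, limma, adjusted p = 0.895). The 8 oocyte and 8 cumulus cell markers summed to at most 18.7 and 28.3 TPM in any embryo. BMP15, which defines the oocyte, was listed at 0 in 8 of the 9 embryos and at 1.42 TPM in WT_1. WT_1 also held the highest H1-8 (4.11 TPM). ZP3 was above 0 in every embryo (5.43 to 18.4 TPM in WT, 3.14 to 9.38 TPM in KO), and GDF9 was at 0 in 3 embryos. Of the 4 sperm markers ODF1 was listed at 0 in all 9 embryos, while PRM1 and TNP1 reached 45.9 and 75.1 TPM in WT_4 and PRM1 73.1 TPM in TE_3. The part of any of these cells in the results was not tested. Between 14807 and 16678 genes were above 0 in a WT library and between 14776 and 15375 in a KO library. The means were 16010.6 ± 741 genes in WT and 15118.5 ± 250 in KO, and the part of this difference in the results was not tested. TE_1 and TE_2 stood apart, with a median-of-ratios size factor, the typical level of a gene relative to the other libraries, of 0.759 and 1.24 against 0.945 to 1.10 in the other 7.

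The first question was whether mitosis genes differed in level between genotypes. None of the 46 genes passed the test: 0 of 46 reached an adjusted p under 0.05 with an absolute log2 difference above 1 (limma on log2(TPM + 1), Benjamini-Hochberg adjustment over 14599 genes), against 0.0205% of all genes tested, and 0 of 46 had an unadjusted p under 0.05, against 5.90% of all genes. All 46 lay above the filter, a median above 0.1 TPM, with mean levels over the 9 embryos from 0.997 TPM (ASPM) to 3693 TPM (MAD2L1) and a median of 31.9 TPM. In none of them did the WT and KO embryos separate completely, while every KO embryo lay above every WT embryo in 0.801% of all genes and below in 1.23%. The KO mean of log2(TPM + 1) was lower in 31 of 46 and higher in 15, where 55.8% of all genes were lower, and the median log2 difference was −0.089, beside −0.046 over all genes. For 32 of the 46 the 95% confidence interval lay within 1 log2 unit of 0, and for the other 14 it did not. A change of TPM + 1 above 2-fold lay outside the interval of those 32. These intervals take 1 spread for both genotypes and can be too narrow. In TPM the bound is wider for low genes such as MKI67 (interval −0.96 to 0.36), which is among the 32. In a whole embryo, fewer dividing cells and less RNA of these genes per cell cannot be told apart.

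**Figure D1:**
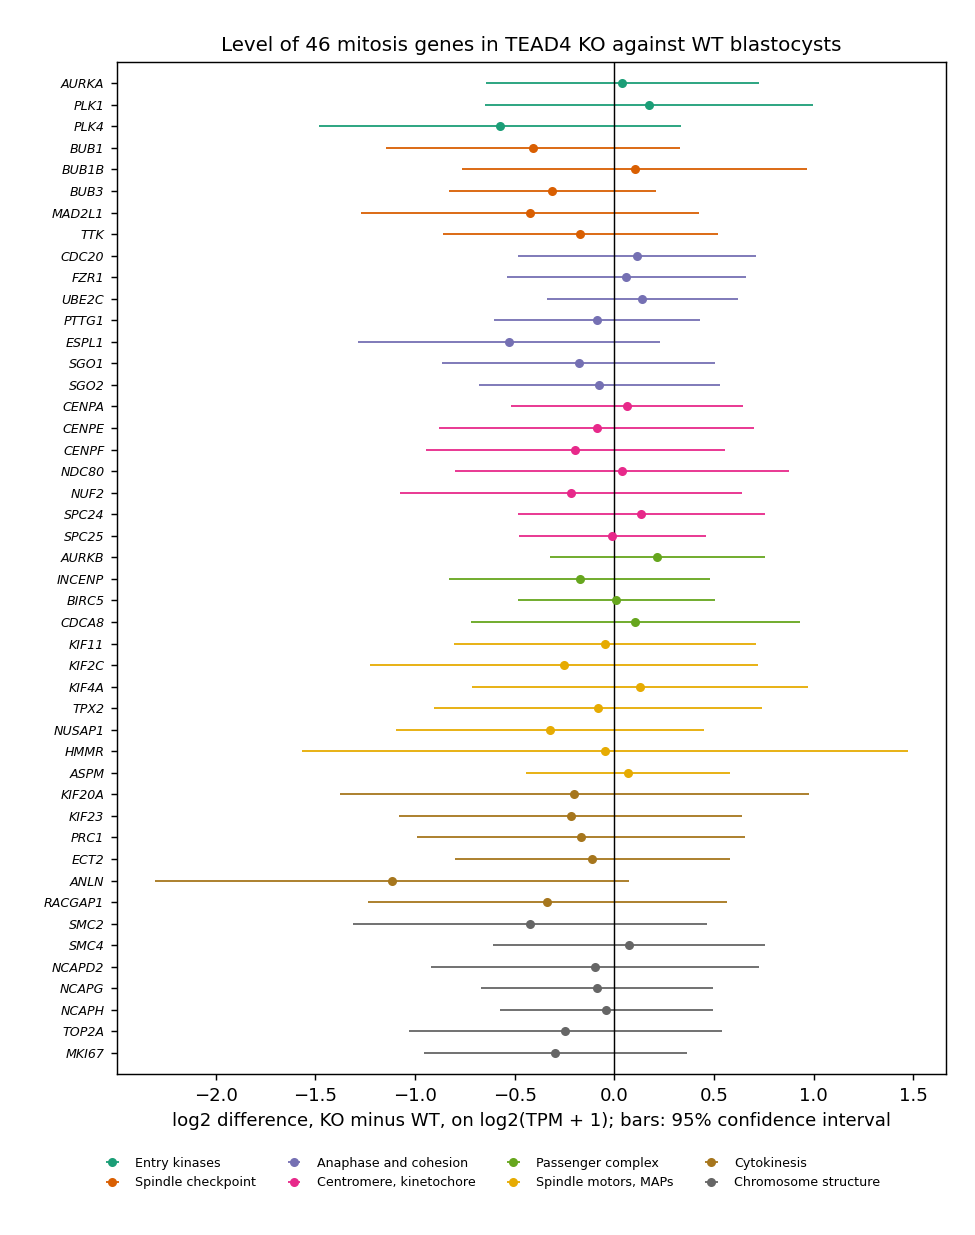
Difference in level of the 46 mitosis genes between 4 KO and 5 WT blastocysts, as the log2 difference KO minus WT on log2(TPM + 1) on the horizontal axis, with 95% confidence intervals from limma as bars and 8 role classes as colours. Every interval crosses 0, and ANLN, at −1.12, is the only gene past 1 log2 unit. The fit takes the same spread for both genotypes.

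The second question was how much single embryos of a genotype differed from each other, and the KO embryos spread more widely. The SD of log2(TPM + 1) was larger among KO than among WT embryos in 41 of the 46 genes (89.1%), where it was larger in 70.1% of all genes tested. Many of the 46 moved together in the same embryos, as given below, so counts of genes are not independent. The median SD of a mitosis gene was 0.30 in WT and 0.67 in KO, against 0.35 and 0.52 over all genes, and the median log2 ratio of the SDs was 1.27 against 0.50. The SD was more than 2 times larger in KO for 30 of the 46 (29.3% of all genes). In TPM, the highest WT embryo stood less than 2-fold above the lowest in 36 of the 46 genes and the highest KO embryo in 9, while the KO embryos spanned more than 4-fold in 15 genes and the WT embryos in 2, MKI67 and HMMR. The median span of a gene was 1.73-fold in WT and 2.92-fold in KO. Spans, here and below, are in TPM before scaling by size factors. They were not computed over all genes, so no share of all genes stands beside these counts.

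The spread was tested with limma on the absolute deviation of each embryo from the mean of its genotype. With groups this small the test passes too many genes, so the shares are read beside those of all genes. KIF20A (adjusted p = 0.00715) and BUB1B (adjusted p = 0.0327) passed an adjusted p under 0.05, with the larger spread in KO; 2 of 46 genes is 4.35%, beside 3.50% of all genes. At an unadjusted p under 0.05 there were 19 of 46 (41.3%), each wider in KO, where 18.3% of all genes passed and 16.6% passed with the wider spread in KO. With deviations taken from the genotype median, which is the stricter form of the test, 14 of 46 passed (30.4%) beside 10.8% of all genes. The 5 genes with the larger SD in WT were SPC24, SPC25, ASPM, NCAPH and MKI67, and none of these passed at an unadjusted p under 0.05. The call of BUB1B (adjusted p = 0.0997 with median-of-ratios size factors) and the size of the excess depended on how libraries were scaled, as given with the single embryos.

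**Figure D2:**
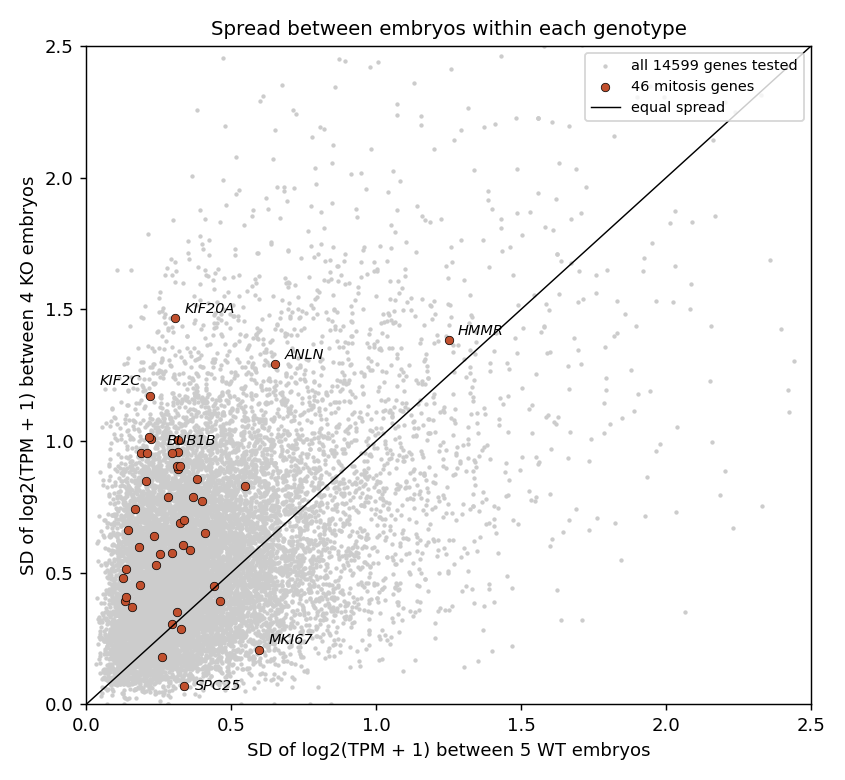
Spread between embryos of each genotype, as the SD of log2(TPM + 1) over 5 WT embryos (horizontal) and 4 KO embryos (vertical), for the 46 mitosis genes (filled circles) and all 14599 genes tested (grey); the line marks equal spread, and 47 genes, none of them one of the 46, lie beyond the axis limit of 2.5. Of the 46 genes, 41 lie above the line, KIF20A at 0.31 in WT and 1.47 in KO.

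The 3 kinases that start mitosis and duplicate centrioles all had a wider range in KO, and the mean log2 level was lower in KO in 1 of the 3. AURKA, the Aurora kinase of the centrosome, was at 136 ± 34.4 TPM (WT) and 150.0 ± 78.9 TPM (KO). PLK1, the Polo-like kinase that drives mitotic entry, was at 42.1 ± 9.48 TPM (WT) and 54.8 ± 39.0 TPM (KO), where TE_2 alone was above every WT embryo. PLK4, the kinase that sets centriole number, was at 24.3, 16.8, 16.9, 16.5 and 18.0 TPM in the WT embryos and 3.80, 19.5, 12.3 and 20.5 TPM in the KO embryos. The KO values of PLK4 were below every WT embryo in TE_1 and TE_3 and within the WT range in TE_2 and TE_4, and its log2 difference of −0.57 (SE 0.42) had an adjusted p of 0.931. The SD of its log2 values was 0.22 in WT and 1.01 in KO.

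Among the 5 spindle checkpoint genes, 4 had a lower mean log2 level in KO (55.8% of all genes) and all 5 a larger SD there (70.1% of all genes). With median-of-ratios size factors the SD was larger in KO in 4 of the 5 (67.3% of all genes). BUB3, a checkpoint scaffold that binds phosphorylated KNL1, was the steadiest of the 5 in WT, at 208, 202, 206, 248 and 203 TPM, and stood at 132, 217, 126 and 240.0 TPM in KO. In TE_1 and TE_3 it lay below all 5 WT embryos and in TE_2 and TE_4 within their range (log2 difference −0.31, SE 0.24, limma, adjusted p = 0.935). BUB1B, the checkpoint kinase-like protein BubR1, was at 21.0, 11.1, 16.6, 14.4 and 15.6 TPM in the WT embryos and 8.50, 31.2, 10.1 and 27.3 TPM in the KO embryos, with TE_1 and TE_3 below and TE_2 and TE_4 above every WT embryo. Its KO mean of 19.3 ± 11.6 TPM beside 15.7 ± 3.60 TPM in WT gave a log2 difference of 0.10 (SE 0.40), so that the means were close while the SD of the log2 values was 0.31 in WT and 0.90 in KO. BUB1, a kinase that brings other checkpoint proteins to the kinetochore, was at 33.8 ± 10.8 TPM (WT) and 26.3 ± 11.4 TPM (KO). TTK, the kinase MPS1 that starts checkpoint signalling, was at 17.5 ± 4.01 TPM (WT) and 16.1 ± 6.31 TPM (KO).

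MAD2L1, the checkpoint protein MAD2 that holds CDC20 inactive, was in a range of its own. It stood at 2243, 3508, 4643, 6270.2 and 3571 TPM in the WT embryos and at 1860.0, 6169, 3151 and 1824 TPM in the KO embryos, ranking between 7 and 96 among the genes of a library. It made up 37.8% to 69.8% of the summed level of the 46 genes. Its lowest embryos were not those of most other mitosis genes: WT_1 was the lowest WT embryo and TE_4 the lowest of all 9. The log2 difference was −0.42 (SE 0.39, limma, adjusted p = 0.956). The summed level of the 46 genes was 6736 ± 1401 TPM in WT and 5984 ± 2852 TPM in KO; without MAD2L1 it was 2689 ± 303 and 2733 ± 966 TPM. How reads of near-identical gene copies were divided is not given in the sources used here, so the level of MAD2L1 is uncertain in that respect.

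**Figure D3:**
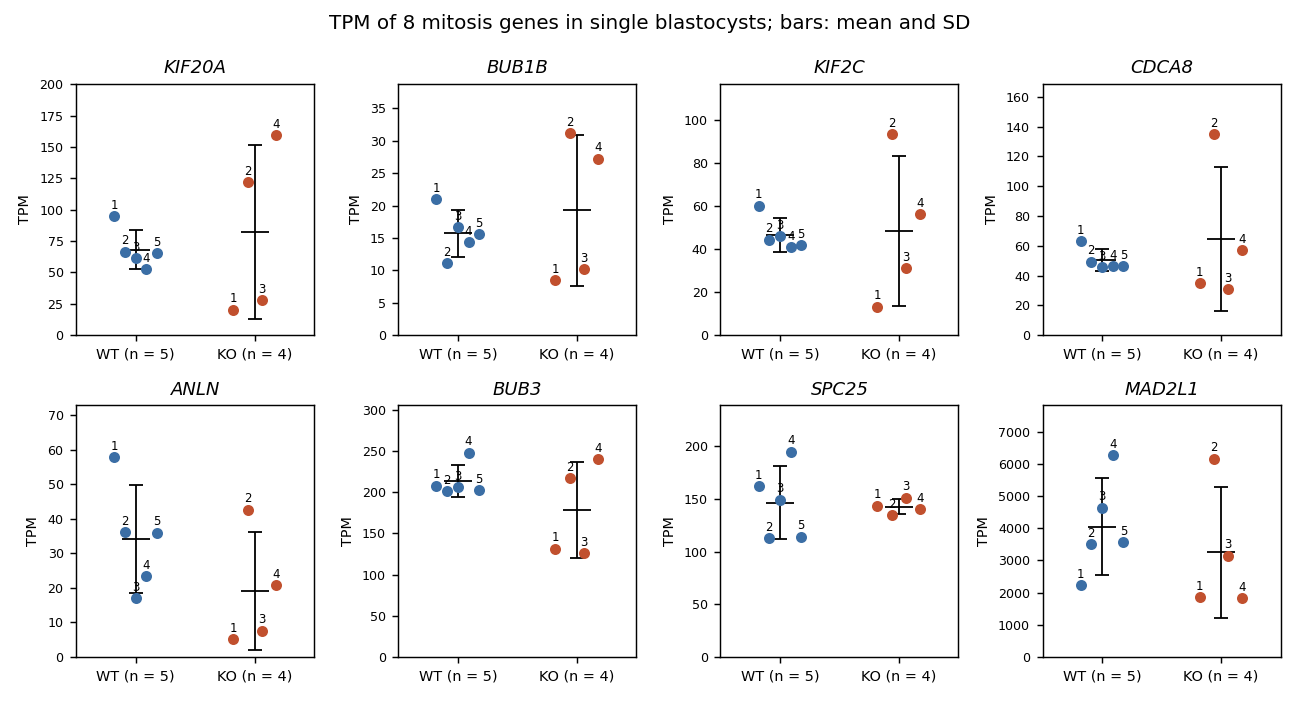
TPM of 8 mitosis genes in each blastocyst (points, numbered as in the embryo names), with the mean and SD of 5 WT and 4 KO embryos as bars. Values are before scaling by size factors. In KIF20A and BUB1B the KO embryos TE_1 and TE_3 lie below and TE_2 and TE_4 above all 5 WT embryos, while in SPC25 the 4 KO embryos lie between 135 and 151 TPM, within the range of the WT embryos.

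The 7 genes of anaphase onset and cohesion protection had small spans in WT, under 2-fold in all 7, and all 7 had the larger SD in KO (70.1% of all genes). With median-of-ratios size factors 5 of the 7 had the larger SD in KO (67.3% of all genes). CDC20, the activator of the anaphase-promoting complex at metaphase, was at 121 ± 15.3 TPM (WT) and 139 ± 60.7 TPM (KO), and FZR1, its activator at mitotic exit, was at 12.2 ± 1.21 and 13.1 ± 3.57 TPM. UBE2C, the ubiquitin-conjugating enzyme of that complex, was the most abundant of the 7, at 279.8 ± 27.8 TPM (WT) and 317 ± 97.4 TPM (KO). PTTG1, the securin that holds separase inactive, was at 228 ± 50.7 and 215 ± 54.3 TPM and had nearly equal SDs of the log2 values, 0.31 in WT and 0.35 in KO. ESPL1, separase, was far lower, at 5.85, 4.15, 6.17, 4.24 and 5.92 TPM in the WT embryos and 3.20, 4.11, 1.37 and 5.73 TPM in the KO embryos. TE_1, TE_2 and TE_3 were below every WT embryo and TE_4 was within their range, and the log2 difference of −0.53 (SE 0.35) had an adjusted p of 0.92. SGO1 and SGO2, the shugoshins that shield centromeric cohesin, were at 21.5 ± 2.21 and 11.5 ± 1.27 TPM in WT and 20.2 ± 8.64 and 11.1 ± 3.05 TPM in KO.

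The 7 centromere and kinetochore genes were split. CENPA, the histone H3 variant that marks centromeres, was at 97.3 ± 17.2 TPM (WT) and 106 ± 44.3 TPM (KO). NDC80 and NUF2, partners in the microtubule-binding NDC80 complex, had wide KO ranges: NDC80 ran from 15.7 to 33.0 TPM in WT and from 14.3 to 49.3 TPM in KO. NUF2 ran from 84.8 to 121 TPM in WT and from 34.4 to 153 TPM in KO. Their partners SPC24 and SPC25, which anchor the complex at the chromosome, did not share that range. SPC25 stood at 162, 112, 149, 195 and 114 TPM in the WT embryos and 144, 135, 151 and 140.4 TPM in the KO embryos. Before scaling, the 4 KO values of SPC25 differed by 1.12-fold between lowest and highest and the 5 WT values by 1.73-fold. Size factors were 0.759 in TE_1 and 1.24 in TE_2, so the narrow KO span need not hold after scaling. With size factors 6 of the 7 genes of this class had the larger SD in KO, against 5 before scaling. The log2 difference of SPC25 was −0.0096 (SE 0.22, limma, adjusted p = 0.998), and that sign turned to 0.049 with median-of-ratios size factors. SPC24 was at 84.7 ± 25.8 TPM (WT) and 91.9 ± 24.2 TPM (KO).

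CENPE, the kinetochore motor that carries chromosomes to the metaphase plate, had close means of 4.07 ± 0.601 TPM in WT embryos and 4.23 ± 2.73 TPM in KO embryos, while the SDs of its log2 values were 0.17 and 0.74. CENPF, a large protein of the outer kinetochore, was at 5.87, 4.29, 5.60, 2.64 and 7.01 TPM in the WT embryos and 2.26, 5.30, 5.27 and 4.37 TPM in the KO embryos. Only TE_1 was below all WT embryos, the SDs were 0.44 and 0.45, and the log2 difference of −0.20 (SE 0.34) was the largest of the class relative to its error (adjusted p = 0.982).

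Of the chromosomal passenger complex, which corrects wrong attachments and later marks the cleavage plane, 3 of 4 genes had a higher mean log2 level in KO and all 4 a larger SD (70.1% of all genes). AURKB, its kinase, was at 78.3, 54.8, 63.1, 62.5 and 66.9 TPM in the WT embryos and 68.1, 119.8, 58.6 and 67.0 TPM in the KO embryos; TE_2 was above every WT embryo and the other 3 lay among them (log2 difference 0.21, SE 0.25, limma, adjusted p = 0.971). CDCA8, the subunit borealin, was at 63.0, 49.4, 45.7, 46.5 and 46.5 TPM in the WT embryos and 34.8, 135, 30.7 and 57.1 TPM in the KO embryos. TE_1 and TE_3 were below every WT embryo and TE_2 above, and the SD of the log2 values was 0.19 in WT and 0.95 in KO. INCENP, the scaffold, was at 25.7 ± 4.81 TPM (WT) and 23.8 ± 10.1 TPM (KO). BIRC5, survivin, had matching means of 199.6 ± 41.9 and 201 ± 38.6 TPM and nearly equal SDs of the log2 values, 0.30 and 0.30.

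Spindle motors and microtubule-associated proteins included the gene with the largest ratio of SDs. KIF2C, the kinesin MCAK that takes microtubules apart at kinetochores, was at 60.3, 44.4, 46.1, 41.0 and 41.7 TPM in the WT embryos and 13.3, 93.5, 31.1 and 56.2 TPM in the KO embryos. The KO embryos spanned 7.05-fold and the WT embryos 1.47-fold, with TE_1 and TE_3 below and TE_2 above all WT embryos, while the log2 difference was −0.25 (SE 0.45, limma, adjusted p = 0.982). NUSAP1, a microtubule-bundling protein, was at 85.2, 49.2, 46.3, 73.5 and 48.1 TPM in the WT embryos and 26.7, 73.5, 31.6 and 75.2 TPM in the KO embryos. TE_1 and TE_3 were below the WT embryos and TE_2 and TE_4 among the higher of them (log2 difference −0.32, SE 0.35, limma, adjusted p = 0.971). TPX2, which activates AURKA on the spindle, was at 60.7 ± 15.8 TPM (WT) and 64.7 ± 39.4 TPM (KO). KIF11, the motor that pushes the spindle poles apart, was at 19.3 ± 5.16 and 19.8 ± 8.65 TPM, and KIF4A, a chromosome-bound kinesin, at 10.5 ± 2.58 and 12.4 ± 5.64 TPM.

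HMMR and ASPM, both proteins of the spindle poles, had similar spreads in WT and KO. HMMR, which was named after its values had been seen, was at 277, 50.2, 35.8, 39.5 and 36.0 TPM in the WT embryos and 13.1, 102, 72.5 and 106 TPM in the KO embryos. WT_1 was higher than every other embryo, and the SD of the log2 values was 1.25 in WT, the largest of the 46 genes, and 1.38 in KO. For ASPM the SDs were 0.33 and 0.29. ASPM had the lowest mean level of the 46 genes, at 0.723, 0.817, 1.43, 0.427 and 1.39 TPM in the WT embryos and 0.921, 1.69, 0.753 and 0.811 TPM in the KO embryos. Its groups overlapped (log2 difference 0.069, SE 0.23, limma, adjusted p = 0.992), and at about 1 TPM the unknown depth limits what can be read from it.

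All 6 cytokinesis genes had a lower mean log2 level (55.8% of all genes) and a larger SD in KO (70.1% of all genes), and 5 of the 6 had an unadjusted p under 0.05 for spread (18.3% of all genes). With median-of-ratios size factors the SD was larger in KO in 5 and 3 had an unadjusted p under 0.05 for spread (15.1% of all genes). Differences between role classes were not tested. The KO embryos spanned more than 4-fold in 5 of the 6 and the WT embryos in none. KIF20A, the kinesin that brings the passenger complex to the central spindle, was at 94.8, 66.6, 61.4, 52.7 and 65.6 TPM in the WT embryos and 20.4, 122, 27.7 and 159.9 TPM in the KO embryos. TE_1 and TE_3 were under all 5 WT embryos and TE_2 and TE_4 over all 5, which gave means of 68.2 ± 15.8 and 82.5 ± 69.3 TPM, and the KO span was 7.86-fold and the WT span 1.80-fold. The KO mean of KIF20A was the higher in TPM and the lower in log2 units (log2 difference −0.20, SE 0.54, limma, adjusted p = 0.987), since a mean of logs gives the low embryos more weight. KIF20A and BUB1B were named after their values had been seen. Leaving out any 1 of the 4 KO embryos brought the adjusted p for the spread of KIF20A to between 0.124 and 0.164 and that of BUB1B to between 0.143 and 0.199, with 3 KO embryos in the fit (0.156 and 0.165 without TE_4, where 0 of the 46 were called), and without WT_3, WT_4 or WT_5 that of BUB1B lay between 0.0672 and 0.0848.

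ANLN, anillin, which links the contractile ring to the membrane, had the largest difference in level of the 46 genes. It was at 57.9, 36.1, 17.0, 23.4 and 36.0 TPM in the WT embryos and 5.07, 42.6, 7.61 and 20.8 TPM in the KO embryos. TE_1 and TE_3 were below every WT embryo, TE_4 lay between the 2 lowest WT embryos and TE_2 was above 4 of the 5, and the log2 difference of −1.12 (SE 0.55, 95% confidence interval −2.31 to 0.074) had an adjusted p of 0.847 in limma. KIF23 and RACGAP1, which together form the centralspindlin complex, were at 47.0 ± 9.97 and 31.7 ± 7.80 TPM in WT and 46.8 ± 32.1 and 29.0 ± 18.0 TPM in KO. PRC1, which bundles the antiparallel microtubules of the central spindle, was at 78.9 ± 11.3 TPM (WT) and 82.1 ± 56.2 TPM (KO). ECT2, the exchange factor that activates RhoA at the cleavage plane, was at 29.7 ± 8.75 and 28.3 ± 10.4 TPM and was the 1 gene of the class without an unadjusted p under 0.05 for spread.

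Of the 7 genes of mitotic chromosome structure, 6 had a lower mean log2 level in KO. SMC2, the core subunit that both condensins share, was at 27.4, 16.6, 20.7, 16.2 and 18.2 TPM in the WT embryos and 5.26, 23.7, 12.5 and 24.8 TPM in the KO embryos. TE_1 and TE_3 were below every WT embryo, TE_2 and TE_4 lay in the upper WT range, and the log2 difference was −0.42 (SE 0.41, limma, adjusted p = 0.966). Its partner SMC4 was at 32.0 ± 8.38 TPM (WT) and 34.9 ± 12.4 TPM (KO). The condensin I subunits NCAPD2, NCAPG and NCAPH had WT means of 10.6 ± 2.03, 35.9 ± 3.59 and 20.6 ± 3.98 TPM and KO means of 10.7 ± 5.18, 35.3 ± 13.8 and 19.9 ± 2.62 TPM. TOP2A, the topoisomerase that untangles sister chromatids, was at 29.5 ± 4.32 and 28.2 ± 18.1 TPM, with SDs of its log2 values of 0.20 in WT and 0.85 in KO. MKI67, the Ki-67 protein of the chromosome surface and a common marker of proliferating cells, was low and had the wider spread in WT. It was at 3.32, 0.952, 1.51, 0.391 and 1.22 TPM in the WT embryos and 0.518, 1.09, 0.979 and 0.983 TPM in the KO embryos. Its SD was larger in WT (0.60) than in KO (0.21), WT_1 held the highest value, and the log2 difference was −0.30 (SE 0.30, limma, adjusted p = 0.97).

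**Figure D4:**
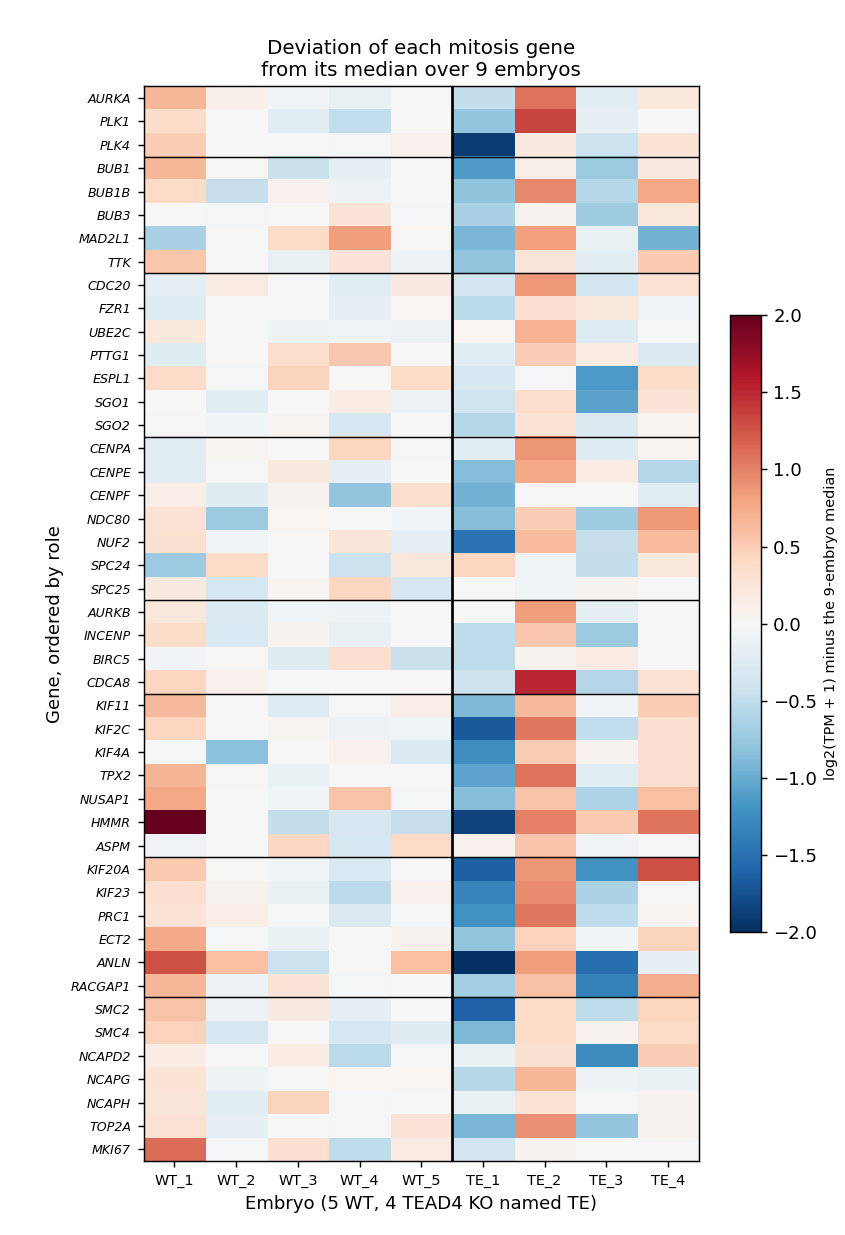
Deviation of each of the 46 mitosis genes from its median over the 9 blastocysts, in log2(TPM + 1), with embryos as columns and genes ordered by role as rows; the colour scale ends at 2, and 2 values lie beyond it (HMMR in WT_1 and ANLN in TE_1). TE_1 and TE_3 are mostly below the median and TE_2, TE_4 and WT_1 mostly above it.

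The wide KO spread followed the same embryos from gene to gene. TE_2 and TE_4 were both above TE_1 and TE_3 in 34 of the 46 genes (73.9%), where 35.9% of all genes tested showed that order; the order was noticed in these same values and is a description. All 6 cytokinesis genes, all 3 entry kinases, 6 of 7 spindle motor and microtubule-associated genes and 6 of 7 chromosome structure genes had it, as did 4 of 5 spindle checkpoint genes, 4 of 7 anaphase and cohesion genes, 3 of 7 centromere and kinetochore genes and 2 of 4 passenger complex genes. The 12 exceptions were MAD2L1, FZR1, UBE2C, PTTG1, CENPE, CENPF, SPC24, SPC25, AURKB, BIRC5, ASPM and NCAPG. In 25 of the 46 genes KO embryos lay both below and above all 5 WT embryos, beside 32.3% of all genes; a KO embryo lay below all WT embryos in 40 genes (60.4% of all genes) and above all of them in 28 (56.8% of all genes).

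Counted by embryo, TE_1 was the lowest of the 9 in 28 of the 46 genes (28.0% of all genes tested) and TE_3 in 10 (13.0% of all genes). TE_2 was the highest of the 9 in 23 (23.3% of all genes), and WT_1 in 10 (13.0% of all genes). Relative to the median over the 9 embryos, the median of the 46 genes was −0.78 log2 units in TE_1, −0.28 in TE_3, 0.57 in TE_2 and 0.21 in TE_4, and 0.30 in WT_1. The other 4 WT embryos lay between −0.062 and 0. Over all genes tested the same medians were −0.24 in TE_1, 0.17 in TE_2 and between −0.011 and 0.052 in the other 7 embryos, so that TE_1 and TE_2 were set apart in genes at large in the same direction as in mitosis genes.

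**Figure D5:**
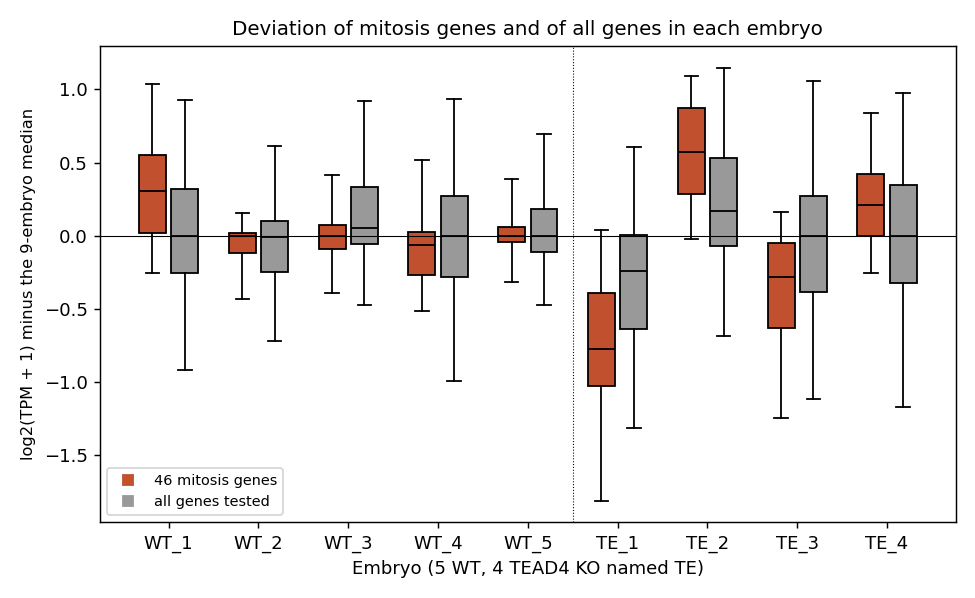
Deviation from the 9-embryo median in log2(TPM + 1) for the 46 mitosis genes and for all genes tested in each blastocyst; the line is the median, the box runs from the lower to the upper quartile and the whiskers reach the 5th and 95th percentiles. The median of the mitosis genes lies at −0.78 in TE_1 and 0.57 in TE_2, where all genes lie at −0.24 and 0.17.

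Part of that difference went with the level of all genes in a library. After dividing each library by its median-of-ratios size factor, the median deviation of the 46 genes was −0.37 in TE_1, −0.19 in TE_3, 0.29 in TE_2, 0.22 in TE_4 and 0.30 in WT_1, with the median of all genes at 0 in every library. TE_2 and TE_4 were then both above TE_1 and TE_3 in 28 of the 46 genes (60.9%) beside 22.9% of all genes, and KO embryos lay on both sides of the WT embryos in 16 (34.8%) beside 28.5%. The SD was then larger in KO in 36 of the 46 genes (67.3% of all genes) with a median log2 ratio of 0.85 (0.42 over all genes), and 10 of 46 (21.7%) passed an unadjusted p under 0.05 for spread beside 15.1% of all genes. Quantile normalization gave 36 of 46, a median ratio of 0.84 and 9 of 46 (19.6%) beside 14.7% of all genes. The part of library quality or embryo stage in the order of the KO embryos was not tested, and the cell number of these embryos was not analysed here.

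The sign of the small shift in level rested on single KO embryos. Without TE_1, 15 of the 46 genes had a lower mean in KO (45.7% of all genes) and the median log2 difference was 0.11 (0.038 over all genes). Without TE_2, 44 of the 46 were lower (63.5% of all genes) and the median log2 difference was −0.31 (−0.12 over all genes). In that fit 8.42% of all genes and 2 of the 46 had an unadjusted p under 0.05, ANLN (log2 difference −1.63, adjusted p = 0.432) and MAD2L1 (log2 difference −0.80). None of the 46 genes passed the adjusted threshold when any 1 of the 9 embryos was left out.

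The rest of the mitotic machinery was read from a second list of 133 genes, covering the other cyclins and kinases of mitotic entry, the anaphase-promoting complex, cohesin, the remaining kinetochore, spindle, centriole, condensin II and cytokinesis genes and the transcription factors of the late cell cycle; 132 of these were above the filter. In level, 0 of 132 passed the adjusted threshold, 2 of 132 (1.52%) had an unadjusted p under 0.05 beside 5.90% of all genes, 80 (60.6%) were lower in KO beside 55.8%, and the median log2 difference was −0.072 beside −0.046. ESCO1, an acetyltransferase that establishes cohesion, was at 7.22, 6.71, 9.82, 15.6 and 8.32 TPM in the WT embryos and 1.32, 9.25, 1.66 and 4.65 TPM in the KO embryos, with TE_2 among the WT values and the other 3 below them (log2 difference −1.22, SE 0.46, limma, adjusted p = 0.745). KNSTRN, a kinetochore and spindle protein, was at 94.99, 82.2, 134, 112 and 87.7 TPM in the WT embryos and 99.9, 263, 123 and 209 TPM in the KO embryos, with TE_2 and TE_4 above every WT embryo (log2 difference 0.68, SE 0.30, limma, adjusted p = 0.827). In spread, 112 of 132 (84.8%) had the larger SD in KO beside 70.1% of all genes, with a median log2 ratio of 0.95 beside 0.50. An unadjusted p under 0.05 was reached by 46 (34.8%) beside 18.3% of all genes, and an adjusted p under 0.05 by 14 (10.6%) beside 3.50%. TE_2 and TE_4 were both above TE_1 and TE_3 in 90 (68.2%) beside 35.9% of all genes, and with median-of-ratios size factors in 64 (48.5%) beside 22.9%. The SDs and spread tests of this second list are given only before scaling. For the 46 genes the share with an unadjusted p under 0.05 for spread fell to 21.7% with size factors, beside 15.1% of all genes.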

How the data were processed

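Single D8 blastocysts, 5 WT and 4 TEAD4 KO, were sequenced from polyadenylated RNA, 1 library per embryo. The authors deposited TPM for 21512 genes in 9 columns, assigned here to WT or KO by column name; the processing notes name FastQC, fastp and kallisto, while versions, annotation and genome build are not given in the sources used here, and neither is the fertilization batch of each embryo. The labels and the methods name different extraction and library kits. The authors tested counts with DESeq2; TPM keep no read depth, so the precision of low values is unknown and no count model was run. A gene list of the study is named as made without TE_4, which its methods do not mention; TE_4 was kept here and left out as an alternative.

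Genes with a median above 0.1 TPM (14599) were fitted with limma 3.58.1 in R 4.3.3 (eBayes with trend), taking log2(TPM + 1) as the response, and p-values were adjusted by Benjamini-Hochberg over all of them; a gene was called at an adjusted p under 0.05 and an absolute log2 difference above 1. A log2 difference on this scale understates the change of low genes. The test of level takes 1 spread for both genotypes. Most of the 46 genes had the larger SD in the smaller KO group, so their SEs and intervals can be too narrow. Spread was fitted with limma on absolute deviations from the genotype mean, scaled for group size. On data simulated with equal spread in both genotypes the test of level recovered changed genes. The spread of the real embryos was not equal, so this does not show how many changes would be found in them. On simulated data the test of spread was liberal in groups this small, so members are set beside the share of all genes that passed. Summaries used Python 3.11.15, pandas 2.3.3, numpy 2.4.6 and matplotlib 3.10.9. The 46 genes and the other lists were chosen with earlier results of these data known. Values in all embryos were given for TEAD4, for the gene of each role class with the largest statistic, the 2 largest and 2 smallest ratios of SDs, the highest and lowest mean, and other mitosis genes with an unadjusted p under 0.05 in level; others so given are said to have been named after their values were seen. Alternatives were the pseudocount, the filter, the scaling, the variance model, library weights and leaving out each embryo; deviations from the genotype median, the sum without MAD2L1, and the order of the KO embryos and the spread by role class after scaling were added after seeing the data.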

Additional observations from a re-analysis of the deposited data

Results flagged for a closer look

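A group here is the WT or the KO embryos for 1 gene. In 9 of the 98 groups examined, the highest or lowest embryo stood apart from the others of its genotype by Dixon's criterion. Chance meets that criterion in about 5% of independent groups, but these groups share the same embryos. Of the 9 groups, 8 were WT, and WT_1 was the highest WT embryo in 5 of them. In WT_1, PLK4 was at 24.3 TPM with the next WT embryo at 18.0 TPM, CDCA8 at 63.0 with the next at 49.4 TPM, and ECT2 at 45.2 with the next at 27.6 TPM. WT_1 also held TPX2 at 88.6 TPM, with the next embryo at 55.7 TPM. HMMR was at 277 TPM in WT_1 and 50.2 TPM in the next WT embryo. WT_4 was high in BUB3, at 248 TPM with the next at 208 TPM, and low in SGO2, at 9.33 TPM with the next at 11.6 TPM, and in NCAPD2, at 7.14 TPM with the next at 10.7 TPM. Among KO embryos TE_1 was low in MKI67, at 0.518 TPM with the next at 0.979 TPM.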

How the results depend on the processing

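No paired analysis was possible because the embryos are numbered without repeats in the labels and the column numbers are not described as pairs. No difference in level was called for the 46 genes or for the other mitosis genes under any alternative, and the number of the 46 with an unadjusted p under 0.05 was 0 except with median-of-ratios size factors, quantile normalization and library weights, where it was 1 (ANLN, log2 difference −1.07, −1.05 and −1.18) beside 6.53%, 6.88% and 7.88% of all genes. With the first 2 of these, 4 of the 132 other mitosis genes had an unadjusted p under 0.05, beside the same shares. Leaving out 1 embryo gave 0 to 2 of the 46 with an unadjusted p under 0.05 (ANLN also without WT_3) beside 3.99% to 8.42% of all genes, 15 to 44 lower in KO beside 45.7% to 63.5%, a median log2 difference of −0.31 to 0.11, 0 to 0 called in level, 0 to 3 called in spread, 13 to 27 with an unadjusted p under 0.05 for spread beside 15.2% to 20.2% of all genes, 36 to 41 with the larger SD in KO beside 63.9% to 74.6% and a median log2 ratio of SDs of 1.03 to 1.85. For the other mitosis genes it gave 0 to 0 called, 1 to 9 of 132 with an unadjusted p under 0.05 beside the same 3.99% to 8.42% and a median of −0.22 to 0.12.

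The number called in spread was 2 as reported, 4 with no filter, and 1 each when 0.1 TPM was added before the logarithm, under median-of-ratios size factors, under quantile normalization and for deviations from the genotype median. BUB1B then had an adjusted p of 0.0602, 0.0997 and 0.123 under the first 3 of those 4, and KIF20A stayed between 0.00645 and 0.0252 over the alternatives that kept all embryos and the genotype mean. With median-of-ratios size factors 10 of the 46 (15.1% of all genes), and with quantile normalization 9 (14.7%), had an unadjusted p under 0.05 for spread, and the median log2 ratio of SDs was 0.84 with quantile normalization. The log2 difference in level turned for SPC25 to 0.049 with size factors and 0.18 with library weights, and for ASPM to −0.086 with library weights. On leaving out 1 embryo it ranged from −0.37 to 0.022 for CENPF, −0.0063 to 0.33 for AURKB, −0.68 to 0.0033 for SMC2, −0.097 to 0.10 for SPC25, −0.33 to 0.37 for CDCA8, −0.67 to 0.24 for KIF2C and −0.071 to 0.16 for ASPM. The cause of these changes was not tested. MKI67 and ASPM were left out by a filter at a median of 1 TPM. TPM give no depth, so no counting error could be set against the spread between embryos, which limits low genes such as ASPM and MKI67 most.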

Other observations

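Of the 14 other mitosis genes with an adjusted p under 0.05 for spread, the 3 given first had the smallest p. They were nearly constant over the WT embryos, which the test itself favours, so that is not a separate result. They are named here after their values had been seen. CDC23, a subunit of the anaphase-promoting complex, was at 13.9, 15.0, 14.1, 15.6 and 13.6 TPM in the WT embryos and 6.34, 18.7, 7.48 and 20.3 TPM in the KO embryos (limma on absolute deviations, adjusted p = 0.00715). NEK2, a kinase that separates centrosomes, was at 46.9, 43.3, 49.5, 49.3 and 41.9 TPM in the WT embryos and 27.5, 82.5, 31.5 and 71.3 TPM in the KO embryos (adjusted p = 0.0092). CCNB1, the cyclin that activates CDK1 at mitotic entry, was at 266, 236, 223, 265 and 238 TPM in the WT embryos and 205, 436, 172 and 419 TPM in the KO embryos (adjusted p = 0.0126). In all 3 genes TE_1 and TE_3 were below and TE_2 and TE_4 above every WT embryo in TPM before scaling. Size factors were 0.759 in TE_1 and 1.24 in TE_2, so that order need not hold after scaling. The calls of these 3 genes are given only before scaling and with all embryos. CDK1 itself was at 119 ± 24.1 TPM (WT) and 97.4 ± 40.9 TPM (KO), and its spread had an adjusted p of 0.59.

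Before scaling, 10 of the 14 listed genes of late cell cycle transcription had the larger SD in KO, where 70.1% of all genes did. The median log2 ratio of the 14 was 1.43 beside 0.50 over all genes. An unadjusted p under 0.05 for spread was reached by 5 of them, beside 18.3% of all genes. The 4 with the larger SD in WT were FOXM1, MYBL2, TFDP1 and NFYC. The genes given next were named after their values had been seen. FOXM1, which drives transcription late in the cell cycle, was at 2.06, 5.07, 4.06, 2.84 and 4.23 TPM in the WT embryos and 3.05, 2.89, 1.95 and 1.95 TPM in the KO embryos, with SDs of the log2 values of 0.40 and 0.25. MYBL2, a partner of the MuvB complex in the same programme, was at 118, 175, 69.2, 71.8 and 136 TPM in the WT embryos and 71.2, 115, 79.6 and 106 TPM in the KO embryos, with SDs of 0.58 and 0.33. LIN9, a subunit of that complex, was at 21.5, 17.2, 9.17, 17.2 and 14.2 TPM in the WT embryos and 1.80, 17.2, 4.13 and 12.8 TPM in the KO embryos, with SDs of 0.43 and 1.25 (log2 difference in level −1.07, SE 0.51, limma, adjusted p = 0.846).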
